A study of Homo sapiens with 18 samples.

Results

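The PARP family and DTX3L were examined as 9 genes, PARP1, PARP2, PARP4, PARP8, PARP9, PARP10, PARP12, PARP14 and DTX3L, of 58302 genes in the expression table. They were chosen by their symbols with their change between shCtrl and shNAT10 cells and their acRIP peaks already known, so those values are given below as a description and without a test. By function, 5 members are interferon-linked (PARP9, PARP10, PARP12, PARP14 and DTX3L), 2 act in DNA repair (PARP1 and PARP2) and 2 belong to neither group (PARP4 and PARP8).

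PANC-1 cells, an established line from a human pancreatic ductal carcinoma, carried either a stable lentiviral control shRNA vector without a target, which the labels call empty (shCtrl), or a stable lentiviral shRNA against NAT10 (shNAT10). NAT10 is the enzyme that writes N4-acetylcytidine (ac4C) on RNA. RNA-seq was performed on 3 libraries per group, and acRIP-seq, in which fragmented RNA is pulled down with an antibody against ac4C, on 3 IP and 3 input libraries per group. Both groups had gone through lentiviral infection, the labels name no interferon treatment, and 1 cell line was used. Which shRNA sequence against NAT10 these libraries carried is not given in the sources used here. The labels do not say whether replicates came from separate cultures, so p-values measure the spread between these libraries, which may be technical.

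PARP enzymes take ADP-ribose from NAD and attach it to proteins or nucleic acids. PARP1 and PARP2 build long chains of it at DNA breaks, whereas most other members add a single unit or have lost the activity. PARP9, PARP10, PARP12, PARP14 and the ubiquitin ligase DTX3L, which binds PARP9, are known as genes that interferon induces, and several of them act against viruses.

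RNA-seq depth lay between 15831720 and 23521762 reads on genes per library. NAT10 itself was measured at 31.6, 27.7 and 28.6 FPKM (reads relative to gene length and library depth) in the shCtrl libraries and at 7.92, 8.43 and 7.90 FPKM in the shNAT10 libraries, which is 27.6% of the shCtrl mean. The log2 fold change of NAT10 was -1.84 (SE 0.08, limma adjusted p = 3.9e-05), and the exact two-sided permutation test gave p = 0.1, the smallest that 3 against 3 libraries allow. All 5 ductal epithelial markers were measured, with KRT8 between 711 and 2009 FPKM, while the 6 blood cell markers summed to at most 0.137 FPKM in any library. Of the fibroblast and endothelial markers, COL1A1 alone passed the expression filter. The ductal markers themselves moved with the knockdown, KRT8 by -1.18 (SE 0.11, limma adjusted p = 0.000361), KRT18 by -0.84 (SE 0.13, limma adjusted p = 0.00231) and EPCAM by 2.20 (SE 0.13, limma adjusted p = 6.9e-05) on the log2 scale. COL1A1 moved by -0.69 (SE 0.10, limma adjusted p = 0.00182). Their part in the changes of the members was not tested.

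The interferon-linked members for which a promoter sequence was at hand share a motif that the rule for choosing genes did not use. They were grouped as genes that interferon induces, and the motif belongs to an element named for that response. A match is therefore not independent of the grouping and is given as a description. The RefSeq promoter table of build GRCh38.p14 covers 250 bases before to 50 bases after each start and holds 7 of the 9 members, all but PARP4 and PARP10. It was searched on both strands for GAAANNGAAA, the core of the interferon-stimulated response element, where N is any base. This motif was found in 3.57% of all 35116 promoters, and 4.38% of the 27305 genes in the table had it in at least 1 promoter. Of the 4 interferon-linked members in the table, 4 held it, against 0 of the 2 DNA repair members and 0 of 1 for PARP8. The interferon-linked PARPs outside the members (ZC3HAV1, PARP11 and TIPARP) lacked it, with 0 of 3. Among other interferon genes in the table, it was in 17 of 26 interferon-stimulated genes and in 0 of 9 genes of interferon signalling. The motif thus does not mark all interferon-linked PARPs. The windows are printed 5′ to 3′ on the strand of each gene, with the motif in capitals.
DTX3L: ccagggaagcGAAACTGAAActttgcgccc
PARP9: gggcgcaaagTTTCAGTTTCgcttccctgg
PARP14: gagttTTCCAGGAAacGAAAGCGAAAgagt
PARP12: ccggggccgcTTTCGGTTTCgtttcccgcc

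The windows of DTX3L and PARP9 are the same stretch, chr3:122564322-122564351, read from either strand. The 2 genes are transcribed away from each other, from starts that lie 38 bases apart, with the single motif at chr3:122564332-122564341. It begins 6 bases before the DTX3L start and 41 bases before this PARP9 start. PARP9 has a further start in the table, 446 bases from that of DTX3L on its other side, without the motif. In PARP14 (chr3:122680794-122680823, plus strand) the motif begins 29 bases before the start. In the same window the capitals also mark TTCNNNGAA, the core of the element that interferon-gamma acts through, with 2 bases between it and the first motif. TTCNNNGAA was found in 7.66% of all promoters and, among the other members, in PARP2 alone. In PARP12 (chr7:140062942-140062971, minus strand) the motif ends 1 base before the start. With GAANNNGAA, a shorter form that overlaps with GAAANNGAAA and was found in 20.4% of all promoters, PARP2 was added to the 4 genes. Of the 330 tested genes with GAAANNGAAA, 87 (26.4%) were called lower and 67 (20.3%) higher, against 2033 (22.3%) lower and 2014 (22.1%) higher of the 9133 tested genes in the table. A match is a string of letters and not a bound site.

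All 9 members passed the expression filter of at least 1 FPKM in at least 3 libraries, and each was above 1 FPKM in all 6 libraries. A gene was called at a limma adjusted p under 0.05. Among all 12982 tested genes, 21.2% were called lower and 20.8% higher in shNAT10 cells, and 3.57% were called lower with a log2 fold change below -1. With FPKM rescaled to the same total in every library (TPM), 16.0% were called lower and 25.8% higher. In 28.6% of tested genes every shNAT10 library lay below every shCtrl library, and in 27.9% every shNAT10 library lay above. Of the interferon-linked members, 5 of 5 were called lower, 4 of them with a log2 fold change below -1, and their groups did not overlap. The count below -1 depended on the scale, with 1 (PARP10) for a pseudocount of 1, 2 (PARP10 and PARP14) with TPM and 3 without shCtrl replicate 1, where PARP14 was at -0.98. Of the DNA repair members, 1 of 2 was called, in the other direction, and of the remaining members 0 of 2. These counts follow from values known when the genes were chosen, so nothing is read from them.

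**Figure D1:**
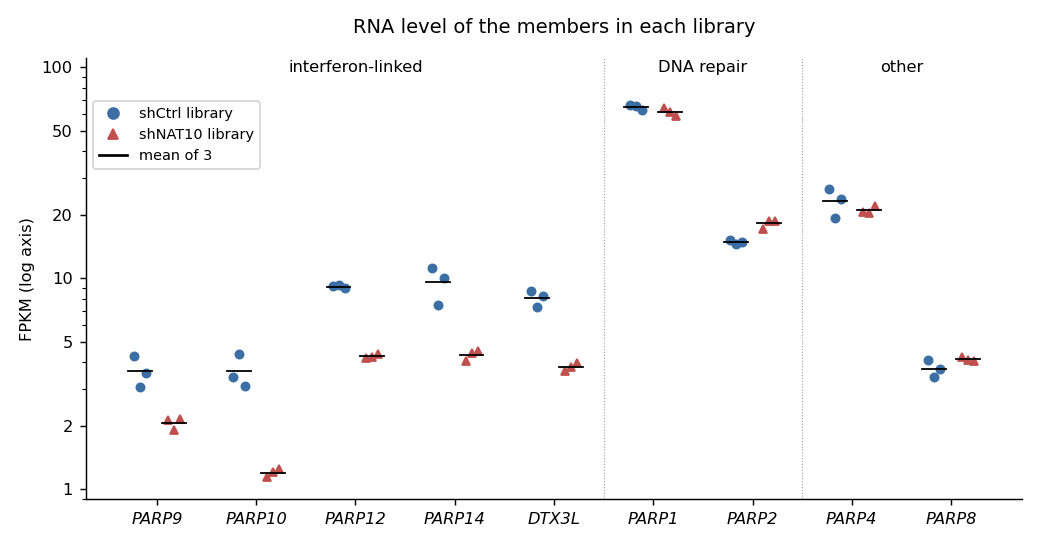
RNA level of each member in FPKM on a log axis, with shCtrl libraries as circles, shNAT10 libraries as triangles and the mean of 3 libraries as a bar. The shNAT10 libraries of the 5 interferon-linked members lie below their shCtrl libraries, PARP2 lies above, and PARP1, PARP4 and PARP8 overlap.

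PARP9 (ENSG00000138496, chr3:122527924-122564577, minus strand), whose macrodomains bind ADP-ribose, was measured at 4.28, 3.04 and 3.57 FPKM in shCtrl cells and at 2.13, 1.91 and 2.16 FPKM in shNAT10 cells. Its groups were apart, although shCtrl replicate 1 stood well above replicate 2. The log2 fold change was -0.77 (SE 0.15), the smallest fall among the interferon-linked members. DTX3L (ENSG00000163840, chr3:122564238-122575203, plus strand), the ubiquitin ligase that forms a complex with PARP9, was measured at 8.72, 7.33 and 8.25 FPKM in shCtrl cells and at 3.63, 3.81 and 3.97 FPKM in shNAT10 cells. The highest shNAT10 library thus lay far below the lowest shCtrl library, with a log2 fold change of -1.07 (SE 0.09). Since both genes share 1 promoter region, their ratio was followed from library to library. DTX3L stood at 2.04, 2.41 and 2.31 times the FPKM of PARP9 in shCtrl cells and at 1.71, 2.00 and 1.84 times in shNAT10 cells, so that DTX3L was the more abundant of the pair per length in every library. On the opposite strand, 2.43% of the exon bases of PARP9 and 3.70% of those of DTX3L are shared with another gene. The libraries were stranded, but the strand setting of the counting is not given in the sources used here.

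PARP14 (ENSG00000173193, chr3:122680618-122730840, plus strand), a large transferase with several macrodomains, was measured at 11.2, 7.46 and 9.97 FPKM in shCtrl cells and at 4.05, 4.45 and 4.52 FPKM in shNAT10 cells. It had the widest spread of the interferon-linked members in shCtrl cells, with replicate 2 low. The log2 fold change was -1.10 (SE 0.15), and -1.27 without shCtrl replicate 2. PARP9, DTX3L and PARP14 lie within 202917 bases of chromosome 3. PARP15, a macrodomain PARP between DTX3L and PARP14, was listed at 0 in 5 libraries and at 0.0127 FPKM in the sixth. Of the nearest tested protein-coding genes on either side of this cluster, the left was not called and the right was called lower. KPNA1, an importin 12978 bases to the left, had means of 22.7 ± 1.59 FPKM in shCtrl and 25.3 ± 0.539 FPKM in shNAT10 cells (SD, n = 3), with a log2 fold change of 0.16 (SE 0.07, limma adjusted p = 0.123). HSPBAP1, 9162 bases to the right, fell from 3.79 ± 0.0748 to 2.38 ± 0.143 FPKM (SD, n = 3), a log2 fold change of -0.65 (SE 0.10, limma adjusted p = 0.00219).

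PARP12 (ENSG00000059378, chr7:140023744-140063721, minus strand), which carries RNA-binding zinc fingers, was measured at 9.17, 9.25 and 8.97 FPKM in shCtrl cells and at 4.18, 4.26 and 4.35 FPKM in shNAT10 cells. It was the most even of the interferon-linked members relative to its level in shCtrl cells, with a log2 fold change of -1.08 (SE 0.07). PARP10 (ENSG00000178685, chr8:143977153-144012772, minus strand), an enzyme that adds single ADP-ribose units, was measured at 3.41, 4.39 and 3.09 FPKM in shCtrl cells and at 1.14, 1.21 and 1.25 FPKM in shNAT10 cells. Its log2 fold change of -1.51 (SE 0.16) was the largest among the members. PARP10 is also the least deeply measured, with 63, 82 and 77 recovered reads in the shNAT10 libraries, and 8.64% of its exon bases are shared with a gene on the other strand. With a pseudocount of 1 in place of 0.1 its log2 fold change was -1.07. PARP12 stood at 2.11 to 2.91 times the FPKM of PARP10 in shCtrl cells and at 3.49 to 3.67 times in shNAT10 cells.

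PARP1 (ENSG00000143799, chr1:226360691-226408079, minus strand), the main sensor of DNA strand breaks, was the most abundant member in every library. It was measured at 65.9, 65.8 and 62.3 FPKM in shCtrl cells and at 64.3, 61.2 and 58.8 FPKM in shNAT10 cells. The groups overlapped, and the log2 fold change was -0.07 (SE 0.06), or 0.03 with TPM. PARP2 (ENSG00000129484, chr14:20343582-20357905, plus strand), its relative with the same role, was measured at 15.1, 14.5 and 14.9 FPKM in shCtrl cells and at 17.2, 18.7 and 18.7 FPKM in shNAT10 cells. Every shNAT10 library lay above every shCtrl library, with a log2 fold change of 0.29 (SE 0.07). Its call did not hold without shCtrl replicate 3, shNAT10 replicate 2 or shNAT10 replicate 3, with log2 fold changes of 0.29, 0.27 and 0.27. PARP1 stood at 4.19 to 4.54 times the FPKM of PARP2 in shCtrl cells and at 3.14 to 3.75 times in shNAT10 cells.

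PARP4 (ENSG00000102699, chr13:24420926-24512810, minus strand), the PARP of the vault particle, was measured at 26.4, 19.3 and 23.9 FPKM in shCtrl cells and at 20.6, 20.5 and 22.1 FPKM in shNAT10 cells. The low shCtrl replicate 2 made the groups overlap, and the log2 fold change was -0.13 (SE 0.12). Without that library it was -0.25 and passed the threshold. PARP8 (ENSG00000151883, chr5:50665899-50846522, plus strand) was measured at 4.08, 3.41 and 3.71 FPKM in shCtrl cells and at 4.22, 4.11 and 4.04 FPKM in shNAT10 cells, which overlap, with a log2 fold change of 0.14 (SE 0.10).

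**Figure D2:**
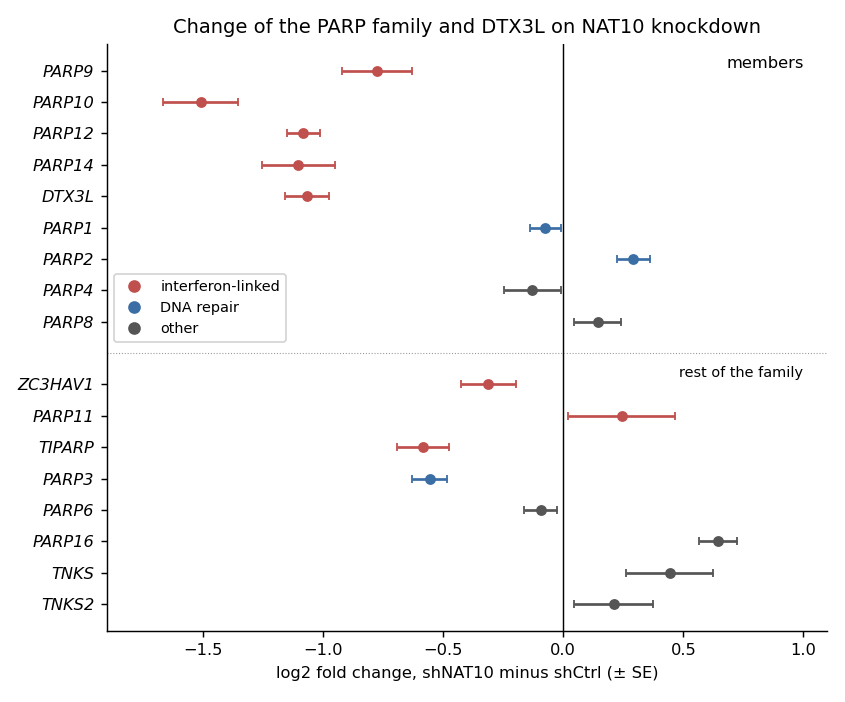
Log2 fold change between shNAT10 and shCtrl cells, as fitted on log2(FPKM + 0.1), for the 9 members and the 8 tested genes of the rest of the family, with bars of 1 SE. The 5 interferon-linked members lie between -1.51 and -0.77, and the members of DNA repair and of neither group between -0.13 and 0.29.

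Set side by side, the interferon-linked members had a median log2 fold change of -1.08 and the DNA repair members one of 0.11, a difference of -1.19, with a median of -0.01 over all tested genes. The summed level of the 5 interferon-linked members was 36.8, 31.5 and 33.9 FPKM in shCtrl cells and 15.1, 15.6 and 16.2 FPKM in shNAT10 cells, which is 46.0% of the shCtrl mean. The summed level of PARP1 and PARP2 was 81.1, 80.3 and 77.2 FPKM in shCtrl cells and 81.5, 79.8 and 77.6 FPKM in shNAT10 cells. The DNA repair pair thus made up most of the transcripts of the 9 genes per length in both groups. The interferon-linked members held 24.2% ± 0.720 of the summed FPKM of the 9 genes in shCtrl cells and 13.01% ± 0.545 in shNAT10 cells (SD, n = 3). In bulk RNA, fewer cells that express a gene cannot be told apart from less RNA per cell.

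By level, the members ranked in shCtrl cells as PARP1, PARP4, PARP2, PARP14, PARP12, DTX3L, PARP8, PARP10 and PARP9. Of neighbours in this order, the library ranges overlapped for PARP14 with PARP12, for PARP8 with PARP10 and for PARP10 with PARP9. In shNAT10 cells PARP8 moved ahead of DTX3L, and PARP10 came last behind PARP9. There the ranges overlapped for PARP14 with PARP12 and for PARP12 with PARP8.

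The pattern of PARP9, PARP14 and DTX3L over the 6 libraries was compared with every other tested gene by the root mean square difference of centred log2 values. The nearest genes were NNT, which makes NADPH in mitochondria, with a difference of 0.03, SEMA4F, a semaphorin, with 0.04, and NCBP1, a subunit of the nuclear cap-binding complex, with 0.05. These 3 genes were picked by their likeness to a profile that falls in the same libraries. Their own fall follows from that choice and is given without a test. NNT fell from 12.8 ± 1.62 to 6.41 ± 0.0679 FPKM (SD, n = 3), with a log2 fold change of -0.98 (SE 0.10). SEMA4F fell from 8.37 ± 0.941 to 4.09 ± 0.137 FPKM (SD, n = 3), with a log2 fold change of -1.01 (SE 0.10). NCBP1 fell from 15.4 ± 1.77 to 7.93 ± 0.184 FPKM (SD, n = 3), with a log2 fold change of -0.94 (SE 0.10). Ordered by the same measure, PARP12 was at place 125 and PARP10 at place 2305 from the top.

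The rest of the PARP family gave 2 lower, 1 higher and 5 uncalled genes among 8 tested of 9, with a median log2 fold change of 0.06. TIPARP, an interferon-linked transferase also induced by the aryl hydrocarbon receptor, was measured at 18.6, 14.5 and 17.9 FPKM in shCtrl cells and at 10.8, 10.9 and 12.1 FPKM in shNAT10 cells, with a log2 fold change of -0.58 (SE 0.11, limma adjusted p = 0.00564). ZC3HAV1, the zinc finger antiviral protein, was measured at 21.1, 15.8 and 20.03 against 15.1, 14.7 and 15.7 FPKM, with a log2 fold change of -0.31 (SE 0.11, limma adjusted p = 0.063). It passed the threshold without shCtrl replicate 2, at -0.44. PARP11 had a log2 fold change of 0.24 (SE 0.22, limma adjusted p = 0.414), so that 1 of the 3 interferon-linked PARPs outside the members was called lower.

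PARP3, a DNA repair PARP that adds single units, moved unlike PARP1 and PARP2. It was measured at 6.62, 6.88 and 6.55 FPKM in shCtrl cells and at 4.65, 4.54 and 4.35 FPKM in shNAT10 cells, with a log2 fold change of -0.56 (SE 0.07, limma adjusted p = 0.00144). PARP16, an enzyme of the endoplasmic reticulum, rose from 6.54, 6.60 and 7.33 to 10.2, 11.1 and 10.8 FPKM, with a log2 fold change of 0.64 (SE 0.08, limma adjusted p = 0.00104). The tankyrases were not called, with log2 fold changes of 0.44 for TNKS (SE 0.18, limma adjusted p = 0.0903) and 0.21 for TNKS2 (SE 0.17, limma adjusted p = 0.344). TNKS passed the threshold without shCtrl replicate 1, at 0.61. PARP6 had a log2 fold change of -0.09 (SE 0.07, limma adjusted p = 0.303), or 0.01 on the TPM scale.

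Among the Deltex ligases, the relatives of DTX3L, 1 of 2 tested genes was called lower, and DTX1 and DTX4 did not pass the filter. DTX2 was measured at 3.73, 4.60 and 3.59 FPKM in shCtrl cells and at 2.44, 2.95 and 2.27 FPKM in shNAT10 cells, with a log2 fold change of -0.62 (SE 0.14, limma adjusted p = 0.0137). Its call was lost without shNAT10 replicate 1 or 3, at -0.59 and -0.54. DTX3 had a log2 fold change of -0.33 (SE 0.13, limma adjusted p = 0.0836), and passed without shCtrl replicate 1, at -0.44.

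Of the enzymes that remove ADP-ribose, 5 of 6 were tested, with 1 lower, 1 higher and a median log2 fold change of 0.04. OARD1, which cleaves ADP-ribose from acidic residues, rose from 5.70, 6.80 and 6.52 to 10.3, 11.0 and 11.6 FPKM, with a log2 fold change of 0.79 (SE 0.09, limma adjusted p = 0.000881). ADPRH, which acts on arginine, fell from 2.47, 1.97 and 2.50 to 1.49, 1.32 and 1.36 FPKM, with a log2 fold change of -0.69 (SE 0.15, limma adjusted p = 0.01). PARG, which cuts the chains that PARP1 builds, had a log2 fold change of 0.25 (SE 0.11, limma adjusted p = 0.101) and passed the threshold without shCtrl replicate 1, at 0.36. ADPRHL2, which acts on serine, and MACROD1, a macrodomain hydrolase, had log2 fold changes of 0.04 (SE 0.13) and -0.14 (SE 0.14), with limma adjusted p of 0.83 and 0.448. For ADPRHL2 the sign turned without shCtrl replicate 1 or 3.

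The members were then set beside the pathways they belong to. All gene lists, like the members, were chosen with earlier results of these data known, so counts within them are a description. Of 32 interferon-stimulated genes outside the PARP family, 17 passed the filter, of which 15 were called lower and 2 higher. Among all tested genes 21.2% were called lower and 20.8% higher. The median log2 fold change of the 17 genes was -1.06. Of these 17 genes, 13 stood at 1 FPKM or more in all 6 libraries, and 11 of these were called lower. The summed level of all 32 genes lay between 152 and 178 FPKM in shCtrl cells and between 79.0 and 81.2 FPKM in shNAT10 cells. IFIT2, IFIT3 and UBE2L6 changed most. IFIT2, which binds viral RNA, fell from 11.2, 9.83 and 12.2 to 1.93, 1.56 and 1.85 FPKM, with a log2 fold change of -2.58 (SE 0.12, limma adjusted p = 5e-05). IFIT3, its partner, had a log2 fold change of -2.26 (SE 0.20, limma adjusted p = 0.000309), and UBE2L6, the enzyme that conjugates ISG15, one of -2.02 (SE 0.16, limma adjusted p = 0.000212). The 2 genes called higher, named after their values were seen, were MX2 at 0.33 (SE 0.09, limma adjusted p = 0.0246) and DDX58 at 0.27 (SE 0.09, limma adjusted p = 0.0491). In this list 17 of the 26 genes in the promoter table held GAAANNGAAA, the motif of DTX3L, PARP9, PARP14 and PARP12. These are not the same 17 genes that passed the filter. MX1, RSAD2, BST2 and HERC5, among others, held the motif and did not pass. Of the genes that changed most, IFIT3 was among those with the motif, and IFIT2 and UBE2L6 were not.

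Of 12 genes of interferon signalling, all tested, 6 were called lower and 1 higher, with a median log2 fold change of -0.36. IRF1, a transcription factor that interferon-gamma induces, fell from 5.37, 6.32 and 5.13 to 2.12, 1.93 and 2.16 FPKM, with a log2 fold change of -1.39 (SE 0.11, limma adjusted p = 0.00023). The receptor chains IFNAR2 and IFNAR1 had log2 fold changes of -1.01 (SE 0.09, limma adjusted p = 0.000333) and -0.72 (SE 0.08, limma adjusted p = 0.000865).

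On the side of PARP1 and PARP2, 8 of 9 repair partners were tested, with 1 lower, 2 higher and a median log2 fold change of 0.02. HPF1, the cofactor that turns PARP1 and PARP2 to serine, fell from 17.5, 22.3 and 21.4 to 12.8, 14.01 and 14.7 FPKM, with a log2 fold change of -0.55 (SE 0.11, limma adjusted p = 0.00721). XRCC1, the scaffold that ADP-ribose chains recruit, and TDP1, which clears blocked DNA ends, had log2 fold changes of 0.48 (SE 0.10, limma adjusted p = 0.0085) and 0.35 (SE 0.07, limma adjusted p = 0.0057). Of 6 genes that supply NAD, 4 were tested and NAPRT was called lower at -0.57 (SE 0.16, limma adjusted p = 0.0273). That call was lost without shNAT10 replicate 1 or 3, at -0.59 and -0.46, and with no expression filter.

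**Figure D3:**
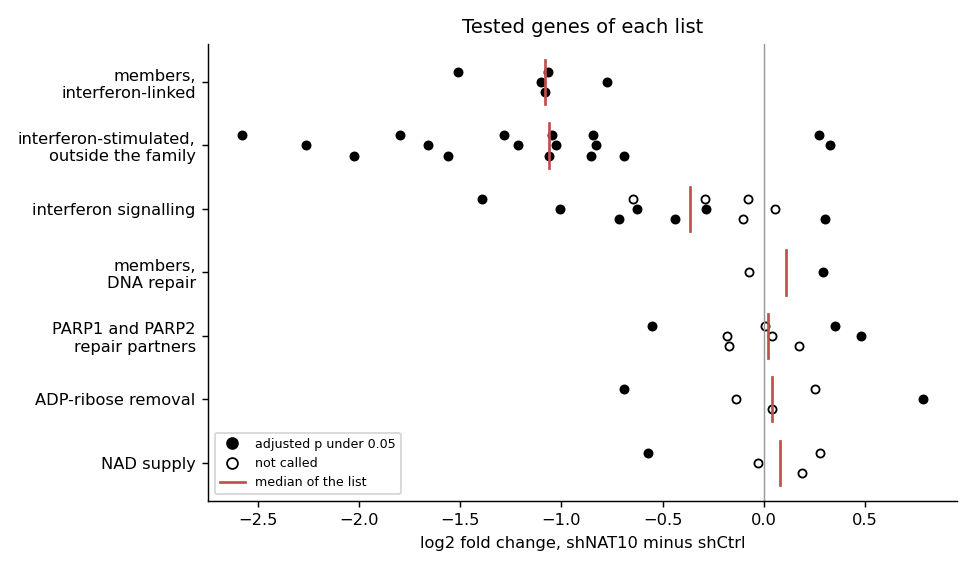
Log2 fold change between shNAT10 and shCtrl cells of each tested gene, by list, with filled points for an adjusted p under 0.05, open points for the others and a red line at the median of the list. The interferon-linked members (median -1.08) lie within the range of the other interferon-stimulated genes (median -1.06), and the DNA repair members within that of their partners. Members and lists were chosen with earlier results of these data known.

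The acRIP-seq data hold 1 list of peaks per group, so the peaks of the members have no replicate check, and the reads behind them are not in the lists. The shCtrl list held 23 peaks on the members and the shNAT10 list 22. Of all tested genes, 49.6% had a peak in the shCtrl list and 47.7% in the shNAT10 list, against 7 of the 9 members in each list. Most peaks on the members had their midpoint in the coding sequence, 18 in shCtrl and 15 in shNAT10 cells, while 4 and 7 were in the 3′ UTR and none in the 5′ UTR. In shCtrl cells 1 further peak on PARP1 lay outside the exons of its coding transcripts. PARP1 alone held 9 of the 23 shCtrl and 7 of the 22 shNAT10 peaks. The same shares over all peaks of the lists were not computed, so these places are not read as a trait of the members. Of the members' shCtrl peaks, 9 (39.1%) overlapped a shNAT10 peak by at least 1 base, and of their shNAT10 peaks 8 (36.4%) overlapped a shCtrl peak, against 25.6% and 27.4% of all peaks in the lists. Of these overlapping peaks, 6 in shCtrl and 5 in shNAT10 cells were on PARP1, and 3 and 3 on interferon-linked members. The pooled shares of the members thus rest largely on PARP1.

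**Figure D4:**
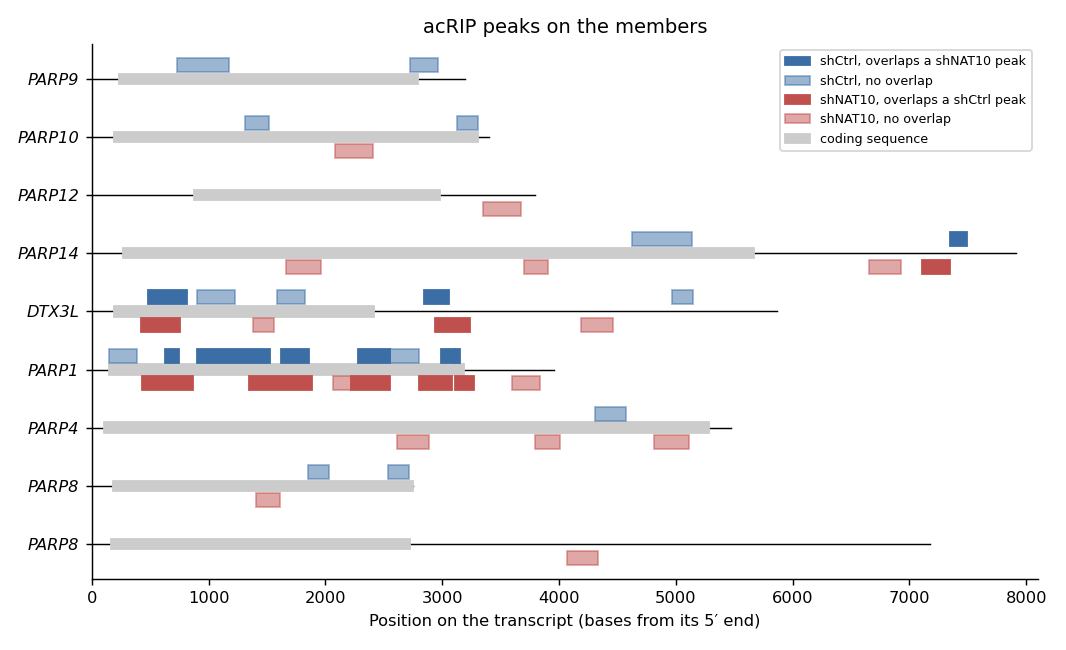
Position of the acRIP peaks along the coding transcript that holds most of each peak, in bases from its 5′ end, with shCtrl peaks in blue above the line, shNAT10 peaks in red below, darker where the lists overlap, and the coding sequence in grey. PARP8 is drawn on 2 transcripts, PARP2 has no peak, and the DTX3L and PARP1 peaks hold most of the overlaps.

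The interferon-linked members held 11 shCtrl peaks and 10 shNAT10 peaks, of which 3 and 3 overlapped between the lists. Over all peaks 25.6% of the shCtrl list and 27.4% of the shNAT10 list overlapped, so a peak listed in 1 group only was the usual case. PARP9 had 2 peaks in shCtrl cells, with fold enrichments of IP over input of 1240 and 1550, and none in shNAT10 cells. These are the 93.4th and 95.4th percentiles of the shCtrl list. PARP10 had 2 shCtrl peaks, with fold enrichments of 2290 and 184, and 1 shNAT10 peak at another place, with 178. PARP12 had no shCtrl peak and 1 shNAT10 peak in its 3′ UTR, with 45.2, which is the median of its list. PARP14 had 2 shCtrl and 4 shNAT10 peaks, and the single overlap, in the 3′ UTR, was 1 base long at chr3:122730270. Of the 5 interferon-linked members, all lower in shNAT10 cells by RNA-seq, PARP9, PARP10 and DTX3L had fewer peaks there and PARP12 and PARP14 had more.

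DTX3L was the interferon-linked member with the most peaks in shCtrl cells, with 5, and had 4 in shNAT10 cells, as many as PARP14. The first peak of each list, chr3:122565962-122568709 in shCtrl and chr3:122565902-122568649 in shNAT10 cells, was the 1 place on the interferon-linked members where the peaks overlapped by at least 50% of both, and its fold enrichment was 85.1 in shCtrl and 265 in shNAT10 cells. Further along the coding sequence, each list held a peak that the other did not, and these lay 28 bases apart. Their sequences are printed on the strand of the gene, from the GENCODE v29 transcripts on GRCh38, since they show how close places listed in only 1 group can lie.
DTX3L peak listed in shNAT10 cells, chr3:122569278-122569458: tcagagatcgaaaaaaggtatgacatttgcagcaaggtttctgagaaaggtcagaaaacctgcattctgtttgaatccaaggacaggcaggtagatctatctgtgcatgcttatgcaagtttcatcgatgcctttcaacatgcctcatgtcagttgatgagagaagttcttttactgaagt
DTX3L peak listed in shCtrl cells, chr3:122569487-122569727: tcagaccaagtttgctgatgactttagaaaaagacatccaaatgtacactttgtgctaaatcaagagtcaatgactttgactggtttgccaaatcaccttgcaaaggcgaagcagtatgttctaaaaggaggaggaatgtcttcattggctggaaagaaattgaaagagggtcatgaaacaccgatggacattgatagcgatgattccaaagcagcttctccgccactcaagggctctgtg
The first had a fold enrichment of 1950 and the second one of 276.

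PARP1 held 9 shCtrl and 7 shNAT10 peaks, of which 6 and 5 overlapped, and they cover much of its coding sequence. Their fold enrichments ranged from 4.35 to 151 in shCtrl cells and from 5.09 to 3150 in shNAT10 cells, and the shNAT10 peak with 3150, at chr1:226360811-226361051 in the 3′ UTR, had no counterpart in shCtrl cells. PARP2 had no peak in either list, and since the reads are not given this is not read as absence of ac4C. PARP4 had 1 shCtrl and 3 shNAT10 peaks and PARP8 had 2 and 2, without an overlap between the lists. How fold enrichment was scaled is not given in the sources used here, so the values of the 2 lists are set side by side and not compared.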

How the data were processed

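RNA-seq of PANC-1 cells (3 shCtrl and 3 shNAT10 libraries) and acRIP-seq (3 IP and 3 input libraries per group) were grouped by their labels. The authors counted reads on Ensembl genes and deposited FPKM values per library. Per the labels, the submitters' processing notes name HISAT2 2, HTSeq 0.11.0 and DESeq2 1.22.2 and build GRCh38. For acRIP-seq the authors deposited 1 peak list per group, each peak with its IP to input fold enrichment (a ratio), a p-value and a log10 score. The peak caller is not given in the sources used here.

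Positions are from GENCODE v29 (58039 of 58302 genes matched). Genes that reached 1 FPKM in 3 or more libraries (12982) were tested on log2(FPKM + 0.1) by limma 3.58.1 in R 4.3.3, with a trend of variance on mean and p-values adjusted after Benjamini and Hochberg; fold changes are on this scale and understate those of low genes. FPKM steps gave whole reads, to within 0.02 reads, for all 12982 tested genes, and these reads entered limma voom as an alternative. Peaks were placed by their midpoint on the coding transcript holding most of their bases. The steps were tested on simulated data. Python 3.11.15 and matplotlib 3.10.9 were used.

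The members and gene lists were chosen with earlier results of these data known. Outside the members, all tested genes of the rest of the PARP family, the Deltex ligases and the enzymes that remove ADP-ribose are named, from each other list the 3 called genes with the largest change, the 3 genes nearest in pattern to PARP9, PARP14 and DTX3L, the neighbours of that locus, and NAT10. Alternatives were a pseudocount of 1, no filter, a minimum of 5 FPKM, TPM, quantile normalization, median centring, the replicate number as a block, no trend, voom, and each library left out in turn, and for peaks the upper 50% of each list by fold enrichment or by p-value, and a reciprocal overlap of 50%.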

Additional observations from a re-analysis of the deposited data

How the results depend on the processing

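The 5 interferon-linked members were called lower under every RNA-seq alternative in which they were tested; with a minimum of 5 FPKM, PARP9 and PARP10 did not pass the filter and 3 were called. The count of these below -1 was 4, and 1 with a pseudocount of 1, 2 with TPM and between 3 and 4 when a library was left out. Over the alternatives the log2 fold change of each of the 9 members kept its sign except that of PARP1, which was 0.034 with TPM. Elsewhere PARP6 turned to 0.012 with TPM, and ADPRHL2 to -0.047 and -0.023 without shCtrl replicates 1 and 3, with 0.191 as its highest value when a library was left out. The median difference between interferon-linked and DNA repair members was -1.05 with a pseudocount of 1, and lay between -1.24 and -1.14 when a library was left out. Leaving out a library put the calls between 0 and 1 for PARP1 and PARP2 (higher) and for PARP4 and PARP8 (lower), between 1 and 2 for the remaining interferon-linked PARPs and for the remaining PARPs of neither group, between 0 and 2 for the Deltex ligases and for NAD supply, and between 1765 and 3318 (lower) and 1774 and 3303 (higher) for all genes. With a minimum of 5 FPKM the calls were 0 for the Deltex ligases, 1 for ADP-ribose removal and 11 for interferon-stimulated genes. For NAD supply they were 0 with no filter and 2 with TPM. Past a log2 fold change of 1, the 463 lower and 378 higher genes became 231 and 198 with a pseudocount of 1, 227 and 221 with a minimum of 5 FPKM, and 573 were higher with TPM. With TPM, 2075 genes were called lower and 3355 higher in all. Whether same-numbered libraries of the groups were made together is not given in the sources used here. Their deviations from the group means correlated at -0.043, 0.064 and 0.107, against -0.122 to 0.063 for libraries with unlike numbers. With the replicate number as a block, 2603 genes were lower and 2524 higher, and the calls of the members did not change. In the upper 50% of each list by fold enrichment there were 14 shCtrl and 14 shNAT10 peaks on the members, with 2 and 2 overlapping. In the upper 50% by p-value there were 15 and 14, with 4 and 3 overlapping. The share of all peaks that overlapped within the upper 50% was not computed, so nothing is read from these counts. Under a reciprocal overlap of 50%, 2 of 23 shCtrl and 2 of 22 shNAT10 peaks on the members overlapped, against 12.7% and 13.6% of all peaks. By this rule the members lay below the lists, whereas by an overlap of at least 1 base they lay above. Depth limits PARP10 most, and the peak lists allow no replicate error.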
